A study of Mus musculus with 179 samples.

Results

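Cholesterol and fatty acid synthesis was followed through 29 genes, given by name as enzymes and regulators of the pathway, out of 32100 genes in the table of unique molecular identifiers (UMIs), each of which marks 1 captured RNA molecule. They form a sterol arm of 16 enzymes from HMG-CoA synthase to cholesterol, a fatty acid arm of 9 enzymes, and 4 regulators. All 29 were matched by symbol, and all had UMIs. RNA was read in single cells by Smart-seq3, a plate method run here beside DNA methylation and accessibility assays, which were not analysed here. The cells form 1 group: wild type C57BL6 mouse exocrine pancreas, labelled acinar, freed from tissue by digestion, enriched on a density gradient and kept for 9 days as organoids in Matrigel, a basement membrane gel. No animal, age, sex or culture is named and each deposited sample is 1 cell, so cells are not replicates, no test or p-value is given, and intervals cover counting error only.

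Cholesterol and fatty acids are both built from cytosolic acetyl-CoA. The sterol arm condenses it to HMG-CoA and mevalonate, then to isoprenoids, squalene, lanosterol and cholesterol, while the fatty acid arm makes malonyl-CoA and palmitate, which are then elongated and desaturated. The SREBP transcription factors, held in the endoplasmic reticulum with SCAP and INSIG proteins when sterols are plentiful, activate genes of both arms, SREBP-2 mainly the sterol genes and SREBP-1 mainly the fatty acid genes. Exocrine acinar cells make large amounts of enzyme and membrane for secretion, and dividing cells need new membrane lipid.

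Depth ran from 3258 to 329522 UMIs per cell with a median of 165267. Levels are CPM, a gene's UMIs scaled to its cell's total, either pooled over all cells with an exact 95% Poisson interval or per cell for the deep cells, those with at least 40000 UMIs. A UMI counts a molecule whatever its length, so levels were not divided by gene length. Comparisons between cells used the deep cells thinned at random to 40000 UMIs each, where 1 UMI equals 25 CPM, which left out 18 shallower cells of the series. Digestive enzyme and other acinar markers were low in most cells, with a median of 131.1 CPM over their 16 genes; 1 cell, Acinar52, held 78.8% of their UMIs. The 12 duct markers had a median of 10384 CPM and the 7 epithelial markers 11085 CPM, so the data go against the acinar label for most cells, which are called organoid cells here. In 6 cells fibroblast markers exceeded 1000 CPM, against at most 288 CPM in the other deep cells. The 24 cells with title numbers 97 to 120 were shallower, with a median of 43006.5 UMIs.

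The promoters of 5 members are printed here: 3 sterol genes carry the CCAAT letters, as does the fatty acid gene Fasn, and Acly does not. Each line gives the 250 bases before the RefSeq start on the gene's own strand (GRCm38.p6), 5′ to 3′. Capitals mark a sterol regulatory element core (TCACNCCAC), a CCAAT box or a GC box (GGGCGG), on either strand, so ATTGG and CCGCCC are the reverse forms. Hmgcs1 is at chr13:119690101-119690350 on the plus strand, Mvd at chr8:122443423-122443672 on the minus strand, Lss at chr10:76531355-76531604 on the plus strand, Fasn at chr11:120824548-120824797 on the minus strand and Acly at chr11:100528001-100528250 on the minus strand.
Hmgcs1: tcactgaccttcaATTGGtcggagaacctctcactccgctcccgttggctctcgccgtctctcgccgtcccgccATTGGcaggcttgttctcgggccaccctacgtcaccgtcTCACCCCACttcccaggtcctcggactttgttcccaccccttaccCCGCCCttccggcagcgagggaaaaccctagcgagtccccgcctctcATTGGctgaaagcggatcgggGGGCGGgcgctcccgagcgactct
Mvd: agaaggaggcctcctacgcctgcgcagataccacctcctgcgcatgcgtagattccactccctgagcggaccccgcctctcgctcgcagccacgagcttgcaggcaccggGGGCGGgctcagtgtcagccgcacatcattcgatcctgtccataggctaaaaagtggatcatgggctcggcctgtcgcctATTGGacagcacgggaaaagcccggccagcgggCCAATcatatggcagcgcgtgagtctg
Lss: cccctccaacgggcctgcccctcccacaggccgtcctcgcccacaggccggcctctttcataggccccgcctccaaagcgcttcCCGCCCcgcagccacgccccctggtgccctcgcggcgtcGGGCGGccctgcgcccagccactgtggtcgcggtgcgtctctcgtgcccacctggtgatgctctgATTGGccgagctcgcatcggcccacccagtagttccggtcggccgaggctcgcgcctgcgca
Fasn: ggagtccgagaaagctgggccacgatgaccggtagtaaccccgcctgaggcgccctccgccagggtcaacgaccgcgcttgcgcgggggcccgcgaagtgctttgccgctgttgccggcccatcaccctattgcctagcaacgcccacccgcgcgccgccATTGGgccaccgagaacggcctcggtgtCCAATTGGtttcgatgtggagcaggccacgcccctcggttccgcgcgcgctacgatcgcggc
Acly: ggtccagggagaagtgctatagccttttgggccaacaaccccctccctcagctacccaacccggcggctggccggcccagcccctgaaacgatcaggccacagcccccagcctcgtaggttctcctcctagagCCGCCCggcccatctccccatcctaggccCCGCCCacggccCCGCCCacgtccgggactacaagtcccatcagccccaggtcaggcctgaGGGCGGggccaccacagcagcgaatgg

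The CCAAT letters, which the factor NF-Y binds beside SREBP in many sterol promoters, were present in the printed length for 13 of 13 sterol genes with an entry in the RefSeq promoter table, 2 of 6 fatty acid genes (Acss2 and Fasn) and 3 of 4 regulators. The same letters occurred in 37.5% of all 27025 genes with a promoter, and in 39.8% of the 5482 that were detected at 1 UMI or more per thinned cell. Throughout, a gene with several entries was counted if any entry held the letters. Among sterol genes, Pmvk and Dhcr7 also have entries without CCAAT. The only Acaca entry, counted as without, lies inside the gene, from 84195188, where the gene starts at 84129672. GGGCGG was present for 12 of 13 sterol genes, 3 of 6 fatty acid genes and 4 of 4 regulators, against 67.3% of the detected genes. TCACNCCAC was found for Hmgcs1 alone among the 23 members with an entry, against 1.295% of detected genes. A longer classical form of the element and the E-box-like form TCACNTGA were in none of the 23. In Fasn 2 CCAAT boxes on opposite strands overlap. A match is only a run of letters, and the motifs were picked after levels had been seen.

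Sterol enzymes together held 1842 CPM (1826 to 1858), from 184.3 through a median of 1765 to 5395 CPM over the deep cells. The highest cell was Acinar55, and the quartiles were 973 and 2454 CPM. Among the first steps, Hmgcs1, the synthase that makes HMG-CoA, was the most abundant sterol member at 280.5 CPM (274 to 287) and ran from 4.23 through 238 to 1751 CPM per cell. Acinar55 alone held 4.47% of its UMIs. The kinases Mvk and Pmvk, which phosphorylate mevalonate, stood at 51.3 and 144.8 CPM. Mvd, which decarboxylates the product to isopentenyl diphosphate, stood at 61.4 CPM, and Idi1, which isomerizes it, at 58.6 CPM. A processed pseudogene, Gm13502, is 100% identical to Idi1 over 684 bases, where reads could be shared, and carried 3.86% as many UMIs. Mvd overlaps Gm20388 on the opposite strand, at 132.9 CPM, so its level is uncertain.

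Fdps, which makes farnesyl diphosphate, stood at 136.6 CPM and ranged from 0 through 131.4 to 365 CPM per cell. A processed pseudogene, Gm3571, is 98.9% identical to it over 1062 bases and carried 35.4% as many UMIs, so the split between the copies is uncertain. Fdft1, which joins farnesyl units into squalene, stood at 175.2 CPM and ranged from 0 through 159.6 to 615 CPM. It overlaps Ctsb, a cathepsin gene at 291 CPM on the opposite strand, and strand use in counting is not stated in the labels. Sqle, which oxidizes squalene, and Lss, which closes the ring to lanosterol, stood at 80.5 and 107.4 CPM.

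Below lanosterol, Cyp51, the lanosterol demethylase, was second among sterol enzymes at 248 CPM (242 to 254), from 0 through 235 to 713 CPM per cell; it overlaps Akap9 on the other strand at 120.03 CPM. Ebp, a sterol isomerase, stood at 178.7 CPM, from 0 through 171.01 to 560.4 CPM. Msmo1 and Nsdhl, which remove methyl groups, stood at 125.4 and 54.3 CPM, and the highest Msmo1 level, 614 CPM, was in Acinar5, a fibroblast-rich cell. Sc5d, a desaturase, stood at 80.6 CPM, the ketoreductase Hsd17b7 at 31.3 CPM and Dhcr7, a last-step reductase, at 26.9 CPM. All 16 sterol members were therefore present, led by Hmgcs1 at the start of the chain and Cyp51 after lanosterol. Other enzymes of the chain, such as Tm7sf2, are not members and are given below.

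The fatty acid arm held 1405 CPM (1391 to 1419), from 228 in Acinar52 through 1453 to 3179 CPM in Acinar174. Acinar52 also held 244616 CPM of acinar markers, which take up part of its total and so lower its other CPM. Acly, which makes cytosolic acetyl-CoA from citrate, stood at 204 CPM (199 to 209) and ran from 67.3 through 198 to 447 CPM, with no deep cell at 0. Its quartiles, 155.4 and 248 CPM, were the closest of the arm as a ratio, at 1.60. Acss2, which makes acetyl-CoA from acetate, was low at 18.7 CPM. Its reads may be mixed with those of Gss on the opposite strand, which had 692% as many UMIs. Acaca, which makes malonyl-CoA, stood at 63.4 CPM, and Fasn, the fatty acid synthase, at 124.4 CPM, from 0 through 109.9 to 499.8 CPM.

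The desaturases Scd2 and Fads2 led this arm. Scd2, a stearoyl-CoA desaturase, was the most abundant of all members at 370 CPM (363 to 377), from 11.5 through 332 to 1186 CPM per cell, and had a UMI in every cell. Fads2, a front-end desaturase of polyunsaturated fats, stood at 319 CPM (313 to 326), from 0 through 334 to 768 CPM. Elovl6, which elongates palmitate, stood at 144.7 CPM, from 0 through 127.5 to 418 CPM, and Fads1, which acts after Fads2, at 137.3 CPM, from 0 through 142.1 to 323 CPM.

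Related desaturases were unequal. Scd1 lies on chromosome 19 from 44394455 to 44407879 on the minus strand (GRCm38) and Scd2 from 44293674 to 44306864 on the plus strand. Scd1 stood at 23.7 CPM, so Scd2 had 15.6 times as many UMIs and exceeded it in all cells but 1. Scd1 had its highest level, 145.3 CPM, in the fibroblast-rich cell Acinar44. The transcripts are 95.5% identical over 623 bases, where reads could be shared. The ratio was 17.7 when reads were counted in place of UMIs. Fads2 had 2.32 times the UMIs of Fads1 and was lower in 13 cells, equal in 11 and higher in the rest.

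Regulators were lower and varied less between cells, at 361 CPM in sum (354 to 368), from 144.6 through 357 to 698 CPM. Srebf2, which encodes SREBP-2, stood at 158.5 CPM (153.8 to 163.2), from 10.99 through 157.7 to 303 CPM. Srebf1, which encodes both SREBP-1 forms, stood at 113.4 CPM (109.5 to 117.4), from 20.9 through 107.5 to 277 CPM; it overlaps Rai1, at 71.9 CPM, on the opposite strand, so its level is uncertain. Scap, the escort protein, stood at 71.2 CPM, from 5.56 through 65.96 to 206 CPM.
Insig1, which retains SCAP and is itself an SREBP target, stood at 18.2 CPM (16.7 to 19.9), from 0 through 10.6 to 291 CPM, the highest again in Acinar55, which held 11.4% of its UMIs. It had 4.73 reads per UMI, more than 99.6% of the 11353 genes with at least 200 UMIs, whose median was 2.21, and stood at 37.2 CPM of reads. Its level thus differs between UMIs and reads more than that of any other member. The variance of thinned UMIs divided by their mean was 24.5 for the sterol sum, 12.5 for the fatty acid sum and 1.60 for the regulator sum. For single members it reached 9.08 for Hmgcs1 and 6.16 for Scd2. Over all genes tested the median was 1.66 and the 90th percentile 5.45. This measure rises with the mean at a like relative spread, so it also reflects abundance and the number of genes summed. The upper over the lower quartile was 2.52, 2.10 and 1.41 for the 3 sums.

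**Figure D1:**
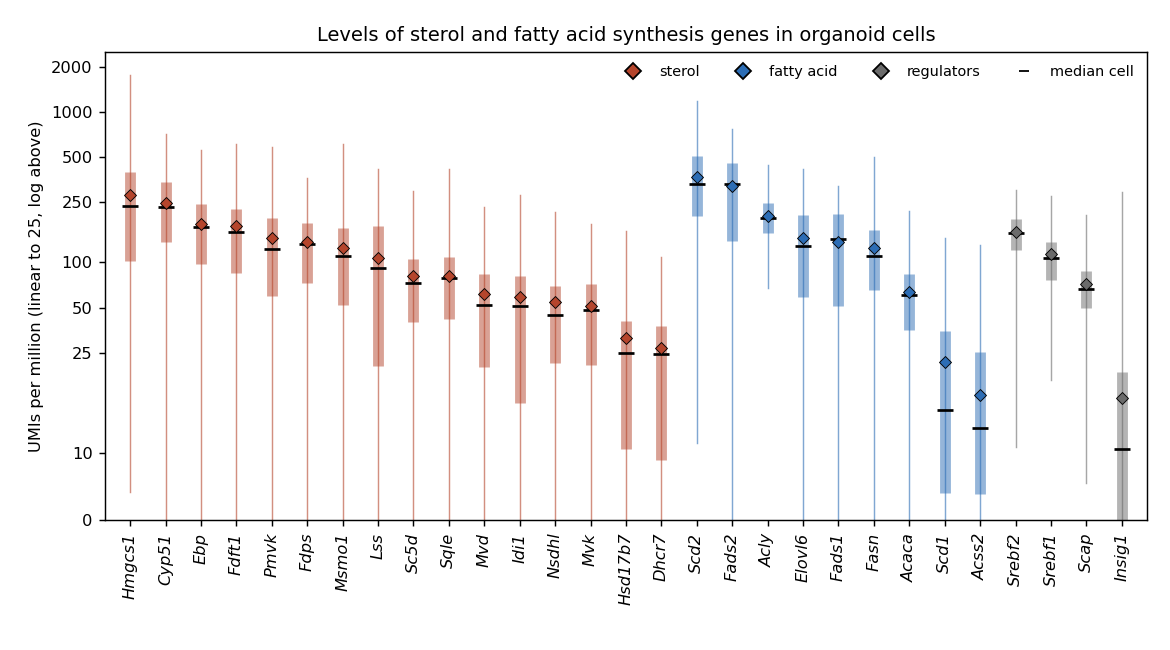
Levels of the 29 members in CPM of UMIs, on an axis that is linear up to 25 and logarithmic above; diamonds are levels pooled over all cells, and black bars, boxes and lines are the median, quartiles and range over the deep cells. Scd2 and Fads2 stand above every sterol enzyme, and Dhcr7, Scd1, Acss2 and Insig1 are the lowest of their groups.

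The sterol and fatty acid sums moved together across cells. Spearman's rho between them was 0.775 and Pearson's r 0.743 over the thinned cells (all of the series but 18), which share 1 protocol and 1 depth, with no animal named. This rho was 0.704 after the ranks of division markers were taken out, and 0.589 to 0.82 within 8 blocks of title numbers. Regulator sums followed less closely, with rho 0.313 to the sterol arm and 0.283 to the fatty acid arm. Total UMIs before thinning had rho 0.158 with the sterol sum and 0.0818 with the fatty acid sum.

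**Figure D2:**
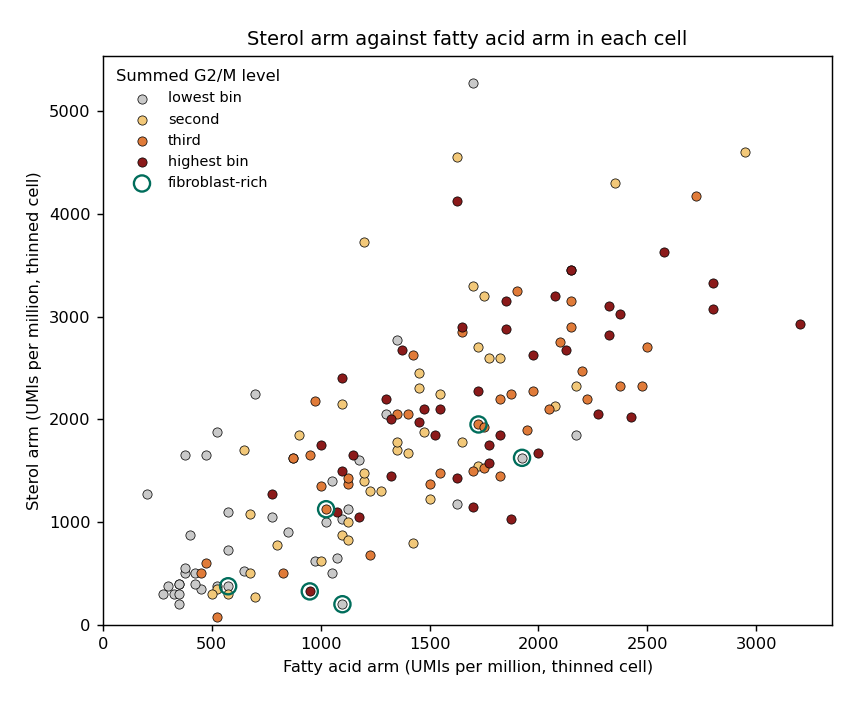
Sterol arm (vertical) against fatty acid arm (horizontal), both in CPM of a thinned cell; each point is a cell, coloured by bin of summed G2/M level, with the 6 fibroblast-rich cells ringed. The arms rise together at rho 0.775, and most cells of the lowest G2/M bin lie at the lower left, with 3 of 40 at or above the highest bin's sterol median, Acinar55 at the top among them, and 2 of 40 at or above its fatty acid median.

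Within the sterol arm nearly all genes kept step. Of the 16 genes 15 reached a mean of 1 UMI per thinned cell (Dhcr7 did not), and 15 of 15 had rho of at least 0.3 with the summed UMIs of the other sterol members, where 7.16% of all 7278 genes tested did so with the whole arm. Hmgcs1 and Cyp51 had the highest values, 0.798 and 0.785, followed by Lss at 0.772 and Fdft1 at 0.729. The lowest were Dhcr7 at 0.424 and Nsdhl at 0.481, with means of 0.969 and 2.04 UMIs per thinned cell. A link between low counts and low rho was not tested. Over the 120 pairs of sterol genes the median rho was 0.445 and 87.5% of them reached 0.3, against a median of 0.00804 and 1.13% over all pairs of tested genes. Hmgcs1 with Fdft1 (0.721) and with Cyp51 (0.700) were the closest pairs.

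Late-step fatty acid enzymes followed the rest of their arm more closely than early-step ones. That sum is weighted towards abundant late-step genes such as Scd2 and Fads2, which favours this order. Early-step genes did not form a group of their own. Fasn had 0.371 with Acaca and 0.396 with Elovl6, and Acly 0.343 with Fasn and 0.352 with Scd2. Spearman's rho with the rest of their own arm was 0.735 for Scd2, 0.717 for Elovl6, 0.664 for Fads2, 0.647 for Fads1 and 0.567 for Scd1, but 0.429 for Fasn, 0.394 for Acly, 0.366 for Acaca and 0.141 for Acss2. All 7 tested members (Scd1 and Acss2 were too low) reached 0.3 with the fatty acid arm, against 10.9% of all genes. With the sterol arm all 7 did so too, against 7.16% of all genes. Elovl6 had 0.746 with the sterol sum beside 0.717 with its own arm, and its pair with Lss reached 0.672. Fads1 (chromosome 19, 10182888 to 10196877, plus strand) with Fads2 (10062765 to 10101746, minus strand) reached 0.691, and Elovl6 with Scd2 reached 0.683. Acly had its lowest sterol pair with Ebp, at 0.0871.

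Conversely, 15 of 15 tested sterol members had rho of at least 0.3 with the fatty acid arm, against 10.9% of all genes. Lss at 0.741 and Pmvk at 0.724 led them. Pairs between arms had a median of 0.330, beside 0.293 for the 36 pairs within the fatty acid arm. For pairs of tested genes alone these medians were 0.373 and 0.337. The difference was not tested. No tested member had rho of −0.3 or below with either arm, which 4.64% of all genes had with the sterol arm and 4.92% with the fatty acid arm.

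**Figure D3:**
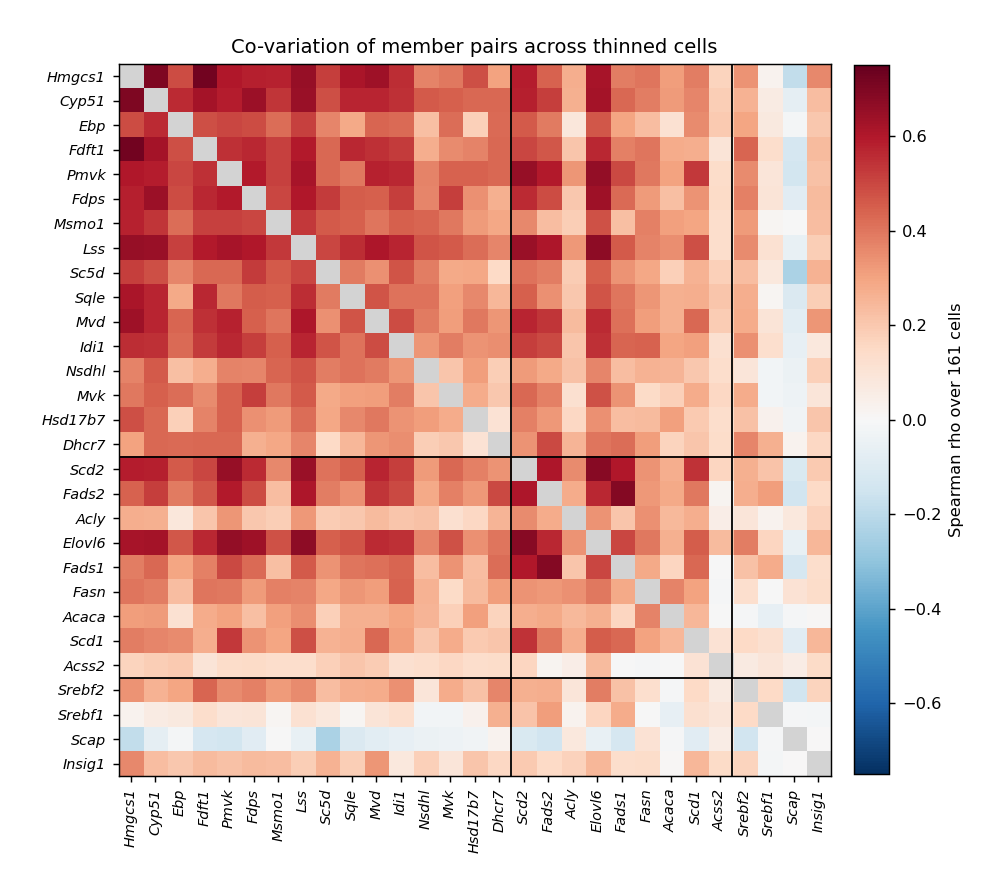
Spearman's rho of every pair of members over the thinned cells, with black lines between the sterol, fatty acid and regulator groups and grey for a gene with itself. Sterol genes and Scd2, Fads2, Elovl6 and Fads1 form the dark area (Hmgcs1 with Fdft1 reaches 0.721), while Acss2, Srebf1 and Scap are pale against nearly all members.

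Among regulators, Srebf2 had rho 0.413 with the sterol arm and 0.301 with the fatty acid arm, while Srebf1 had 0.0705 and 0.225. Scap had −0.110 and −0.0823, and its pair with Sc5d was the lowest of all, at −0.240. Insig1, under 1 UMI per thinned cell, had 0.315 and 0.251. Thus 1 of the 3 tested regulators, Srebf2, reached 0.3 with each arm. Of all genes 7.16% reached 0.3 with the sterol arm and 10.9% with the fatty acid arm, and 3 regulators are too few to set apart from these shares. With the sum of the other regulators none of the 3 did, where 0.22% of all genes reached 0.3 with the regulator sum, and the 6 regulator pairs had a median of −0.00114. RNA levels say nothing of SREBP cleavage, which was not measured.

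Division was read from 24 G2/M genes, among them Mki67 and Top2a, whose sum was used to order the thinned cells in 4 bins of 40 or 41, which are stretches of a continuous score rather than cell types. The median sterol level was 800 CPM in the lowest bin, 1700 in the second, 2000 in the third and 2100 in the highest. The fatty acid arm had medians of 575, 1350, 1712.5 and 1725 CPM, and the regulators 287.5, 387.5, 387.5 and 400 CPM. For both arms most of the step thus lay between the lowest bin and the second. In the highest bin 1 of 41 cells lay at or below the lowest bin's sterol median (Acinar105, fibroblast-rich), and 3 of 40 lowest-bin cells reached the sterol median of the highest. Ranges therefore overlapped at their ends: the lowest bin ran from 200 to 5275 CPM and the highest from 325 to 4125.

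Pooled levels in the highest over the lowest bin gave ratios of 2.11 (1.99 to 2.24) for the sterol arm, 2.26 (2.11 to 2.41) for the fatty acid arm and 1.33 (1.18 to 1.499) for the regulators. Median depth before thinning was 197730 UMIs in the highest and 150338 in the lowest bin. Epithelial markers had medians of 9075 and 13925 CPM there, and 1 and 3 cells were fibroblast-rich. The part of these differences in the ratios was not tested; without fibroblast-rich cells the counts of members past 1.5-fold, given below, were the same. Acinar52, with its acinar markers, also lay in the lowest bin.

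**Figure D4:**
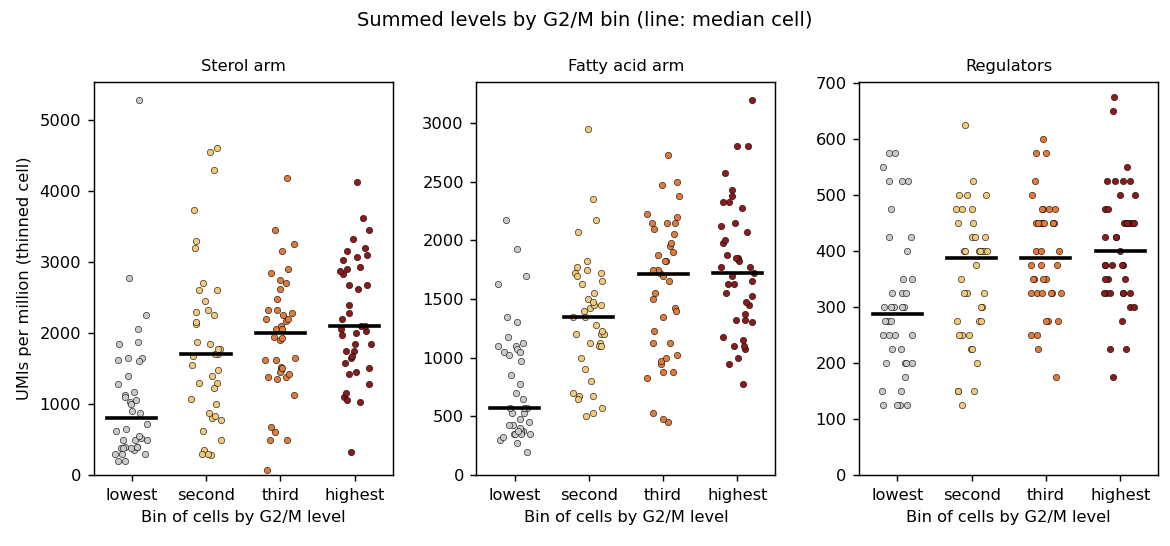
Summed levels of the sterol arm, fatty acid arm and regulators in CPM, in 4 bins of thinned cells ordered by G2/M level; points are cells and lines are medians. Sterol medians go from 800 to 2100 and fatty acid medians from 575 to 1725, with 1 cell of the lowest bin (Acinar55) above all others in sterol level.

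Of the tested members 15 of 15 sterol, 6 of 7 fatty acid and 1 of 3 regulator genes were at least 1.5 times higher in the highest bin, as were 20% of all 7278 genes. The regulator was Srebf2, and with cells thinned to 100000 UMIs the count was 0 of 3. None was lower by that fold, which 19.3% of all genes were. The counting interval lay wholly at or above 1.5 for 9 of 15 sterol, 6 of 7 fatty acid and 0 of 3 regulator genes. That share was not computed for all genes. The median ratio was 2.15 for tested sterol genes and 2.50 for tested fatty acid genes, beside 1.01 over all genes.

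Lss had the largest sterol ratio, from 31.2 CPM at the bottom of the G2/M order to 151.8 at the top, or 4.86-fold (3.57 to 6.72). Idi1 had 18.1 and 73.2 CPM, or 4.04-fold (2.67 to 6.28), and Pmvk 67.5 and 206 CPM, or 3.05-fold (2.45 to 3.83). Ratios were 2.40 for Fdps, 2.37 for Mvk, 2.24 for Ebp, 2.22 for Mvd and 2.15 (1.42 to 3.30) for Hsd17b7. The abundant Hmgcs1 and Cyp51 were lower on this scale, at 1.76 (1.52 to 2.03) and 1.93 (1.65 to 2.26). Acinar55, the highest cell for Hmgcs1, lay in the lowest bin. Fdft1, Sc5d, Sqle, Nsdhl and Msmo1 had ratios of 1.75, 1.75, 1.65, 1.55 and 1.55. Their intervals began below 1.5, at 1.45, 1.33, 1.25, 1.13 and 1.24.

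In the fatty acid arm Fads2 went from 126.2 CPM at the bottom to 445 at the top, or 3.53-fold (3.01 to 4.14). Elovl6 followed at 2.87 (2.26 to 3.66), Scd2 at 2.63 (2.31 to 3.01) and Fads1 at 2.50 (1.998 to 3.14). Acaca and Fasn had ratios of 2.12 and 2.07. Acly stood apart from these values, with a ratio of 1.05 (0.892 to 1.23). Among genes under 1 UMI per thinned cell, and so uncounted, Dhcr7 had 3.77, Scd1 3.51 and Acss2 0.519 (0.306 to 0.86).

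Srebf2 had 114.4 and 182.9 CPM, or 1.60-fold (1.33 to 1.93), and Srebf1 88.8 and 125.6 CPM, or 1.42-fold (1.14 to 1.77). Scap and Insig1 had ratios of 0.952 (0.737 to 1.23) and 0.976 (0.606 to 1.57).

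**Figure D5:**
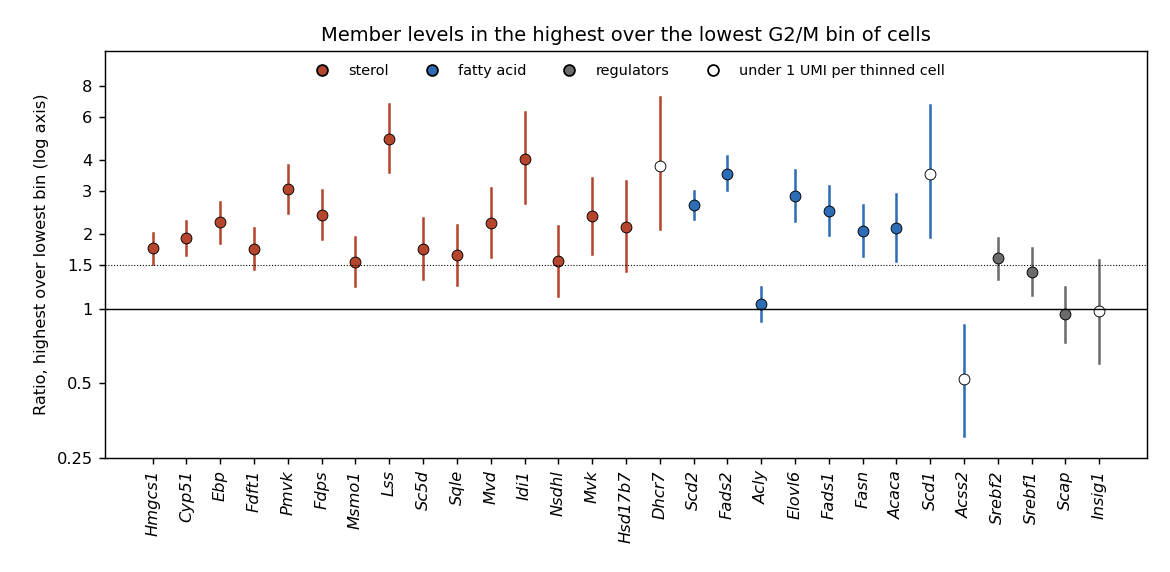
Ratio of pooled level in the highest over the lowest G2/M bin for each member, on a log axis with exact 95% counting intervals; the solid line is 1, the dotted line 1.5, and open circles are members under 1 UMI per thinned cell. All filled sterol points lie above the dotted line, from 1.55 to 4.86. Only 9 of 15 have their whole interval there, a share that was not computed for all genes. Acly and Scap lie near 1.

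As rank correlations across cells, the sterol arm had rho 0.419 and the fatty acid arm 0.520 with the G2/M sum. Pearson's r was lower, 0.265 and 0.384. With G2/M, 9 of 15 sterol, 5 of 7 fatty acid and 0 of 3 regulator genes reached 0.3, against 12.3% of all genes, led by Fads2 at 0.571 and Scd2 at 0.471. After the fatty acid sum was taken out by ranks, rho of the sterol arm with G2/M was 0.0302, while that of the fatty acid arm after the sterol sum was 0.339. Within blocks of title numbers the sterol value ran from −0.0728, in the 14 thinned cells of numbers 97 to 120, to 0.71, and the fatty acid value from 0.268 to 0.683.

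DNA replication genes gave a like picture, but their sum had rho 0.607 with the G2/M sum, so it is not a separate reading. The S phase sum of 24 genes had rho 0.401 with the sterol arm and 0.524 with the fatty acid arm, and 6 of 15, 5 of 7 and 1 of 3 genes (Srebf1, at 0.309) reached 0.3, against 12.3% of all genes. In bins ordered by the S phase sum, sterol medians were 1000, 1425, 2037.5 and 2100 CPM and fatty acid medians 737.5, 1137.5, 1750 and 1725 CPM. The arms also moved together inside each G2/M bin, with rho of 0.582, 0.771, 0.781 and 0.623. Acinar55 shows the sterol and G2/M measures apart. It had the highest sterol level of the deep cells, 5395 CPM, with 1751 CPM of Hmgcs1, beside a G2/M sum of 145.5 CPM. Its fatty acid sum was 1847 CPM, at the upper quartile of the deep cells, though it had no Fads1 UMI.

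In the 6 fibroblast-rich cells the sterol sum ran from 206 through 834 to 1995 CPM, where the other deep cells had a median of 1766. Their fatty acid sum ran from 688 through 1172 to 2187 CPM, against a median of 1470, and Acly had a median of 248 against 197 CPM. Fads1 reached its highest level of the deep cells, 323 CPM, in Acinar6, one of them.

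Other genes of the pathway, from lists beyond the members, followed in part. Of 7 other sterol synthesis genes measured, 5 were tested and 5 had rho of at least 0.3 with the sterol arm, against 7.16% of all genes. Acat2, which makes acetoacetyl-CoA, had 147.2 CPM and rho 0.692, Stard4, a sterol carrier, 95.8 CPM and 0.647, and Tm7sf2, a sterol reductase, 67.7 CPM and 0.373. Of 9 tested genes of other fatty acid synthesis, 4 reached 0.3 with the fatty acid arm, against 10.9% of all genes. Me1, an NADPH source, was the highest at 341 CPM with rho 0.268 to that arm and a G2/M ratio of 1.04, followed by Tecr (177.3 CPM, rho 0.372) and Hsd17b12 (132.5 CPM, rho 0.166), both of the elongation cycle.

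Of other regulators 0 of 4 tested genes reached 0.3 with the sterol arm, a count too small to set apart from the 7.16% of all genes, with the SREBP protease Mbtps1 at 59.6 CPM and rho −0.150, the ubiquitin ligase gene Fbxw7 at 43.8 CPM and −0.136, and the liver X receptor gene Nr1h2 at 36.3 CPM and −0.139. For uptake, storage and export 2 of 7 did, against the same 7.16%; Npc2, a lysosomal sterol carrier, had 189.8 CPM and −0.0273, and the droplet coat gene Plin2 83.2 CPM and −0.161. For fatty acid oxidation 0 of 7 reached 0.3 with either arm, which is near the 7.16% and 10.9% of all genes. Acadl, a long-chain acyl-CoA dehydrogenase, had 159.96 CPM and Hadha, a subunit of the mitochondrial trifunctional protein, 66.5 CPM.

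Outside those lists, the genes with the highest rho to the sterol arm included Fabp5, a fatty acid binding protein, at 1217 CPM and rho 0.705, the cytochrome c gene Cycs at 0.605 with its copy Gm10053 at 0.611, Gm3571, the Fdps pseudogene, at 0.598, and Fgfbp1, a growth factor carrier, at 0.596. With the fatty acid arm Acat2 and Stard4, both from the sterol list above, had 0.652 and 0.631, and Fabp5 had 0.631. The ADP/ATP carrier Slc25a5 had 0.624, the chaperone Hsp90b1 0.623, the peroxiredoxin Prdx6 0.607, Cycs 0.599, Gm10053 0.598 and Anp32e, a histone chaperone, 0.597. These values come from the thinned cells, so depth is equal, and many of these genes also followed G2/M, with rho of 0.565 for Cycs and 0.675 for Anp32e.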

How the data were processed

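RNA was measured in single organoid cells, each a sample of its own. The authors deposited raw UMI counts and raw read counts per gene and cell, with no normalization; whole-number values were checked. STAR, featureCounts, GRCm38 and mm10 are named without versions or roles, per the submitters' processing notes; UMI collapse and strand use are not given in the sources used here. From the deposited counts, CPM were UMIs divided by a cell's total. Cells with at least 40000 UMIs were thinned to that depth (seed 1). The 7278 genes that averaged 1 UMI or more in the thinned cells are called tested, in the sense of being set against limits: rho of at least 0.3, or a ratio of at least 1.5. A member's own UMIs were taken out of its arm before rho was computed. Partial rho used ranks. The ratio steps were tested on simulated data. No count model was fitted, since all cells form 1 group with no replicate named, and no doublet caller was run.

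Named genes are all 29 members, the 10 genes with the highest rho to each arm, and the 3 highest of each pathway list; a few genes these rules name are not reported here. Members, lists and rules were chosen with earlier results of these data known, and the motifs, promoter window and printed promoters after levels were seen. Near copies were GENCODE transcripts (GRCm38) with at least 90% identity over 300 bases (blastn 2.17.0). Promoters are from RefSeq (GRCm38.p6); 23 of 29 members matched. Software was Python 3.11.15, numpy 2.4.6, pandas 2.3.3, scipy 1.17.1 and matplotlib 3.10.9. Other settings covered depth, reads, cells left out, title numbers, weights and arm definitions.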

Additional observations from a re-analysis of the deposited data

How the results depend on the processing

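No paired analysis was possible because all cells form 1 group with no shared replicate numbers. The 3 arm correlations kept their direction and stayed within 0.1 under the 10 other settings tried for each: 0.758 to 0.799 between arms, 0.383 to 0.472 for sterol with G2/M and 0.477 to 0.595 for fatty acid with G2/M. Leaving out title numbers 97 to 120 or Acinar52, and taking the median of the members' ratios, were chosen after seeing the data. The bin ratio of the sterol arm was 1.88 when cells were thinned to 100000 UMIs and 2.30 for title numbers from 97. That of the fatty acid arm was 1.98 at 100000 UMIs, 1.87 for title numbers up to 96, 2.92 from 97 and 2.50 as the median of the members' own ratios. Ranks have no true zero, so no ratio was run for arms as mean ranks. Thinning to 100000 UMIs left 14 of 15 sterol, 6 of 7 fatty acid and 0 of 3 regulator genes at 1.5-fold or more; the sterol count was also 14 of 15 for title numbers from 97 and without 97 to 120. Pooled sterol level was 1816 CPM by reads, 1772 with equal weight per cell, 1873 without fibroblast-rich cells, 1960.2 for title numbers up to 96 and 1677 from 97. Pooled fatty acid level was 1433 by reads, 1384 with equal weight, 1453 up to 96 and 1339 from 97. Regulators stood at 370.3 by reads and 352 with equal weight. The cause of these shifts was not tested. Depth limits Dhcr7, Scd1, Acss2 and Insig1, whose thinned values rest on under 1 UMI per cell.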

Other observations

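Genes at the other end, with the lowest rho to the members' sums, were looked up after the values were seen. With the sterol arm, Fbxl20, an F-box gene, had rho −0.58 over the thinned cells, the forkhead gene Foxn3 −0.51, the antiproliferative gene Btg2 −0.49, the transcription factor gene Sox4 −0.49 and Mxd4, a MYC antagonist, −0.48. With the fatty acid arm, the lysosomal protease gene Ctsd had −0.61, Psap, a lysosomal lipid degradation cofactor, −0.54, Btg2 −0.53, Mxd4 −0.52 and the cell cycle inhibitor gene Cdkn1a −0.50. A rho of at most −0.3 was reached by 4.64% of all tested genes with the sterol arm and by 4.92% with the fatty acid arm. Several of these genes were also lower in the highest than in the lowest G2/M bin, with ratios of 0.0516 for Mxd4, 0.153 for Btg2, 0.261 for Cdkn1a and 0.333 for Ctsd.

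Sterol export genes were near 0 in most cells. Abca1, a sterol exporter, had UMIs in 20 cells of the series and Abcg1 in 41. In the 6 fibroblast-rich cells their medians were 33.5 and 54.2 CPM, against a median of 0 in the other deep cells for both.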
